A study of Capra hircus with 12 samples.

Results

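Collagens are the triple-helical proteins that give connective tissue its tensile strength, and the 43 genes described here are those among 20326 in the files whose name has the form COL, a type number, A and a chain number. They comprise 9 fibrillar chains (types 1, 2, 3, 5 and 11), 9 chains of basement membranes and their anchors (types 4, 7, 15, 17 and 18) and 25 chains of other types. The RNA came from secondary follicles, which make the cashmere undercoat, of goats (Capra hircus) aged 1.5 years. May and September represent anagen (growth), November and December catagen (regression), and February and March telogen (rest). Each of the 6 months has 1 female and 1 male library, so that each stage has 4 and there are 12 in all. Because each stage was sampled only in its own months, stage cannot be told apart from season or sampling occasion. The stage comparisons count the libraries of a month as separate replicates. No treatment, breed or genotype is labelled. Values are those deposited under a heading of TPM, a per-length measure, and their sums differ between libraries (904623 to 1127797). Where a sentence gives a pair of values for a month, the female library comes first.

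In skin, fibroblasts secrete type 1 and type 3 collagen, which assemble into fibrils whose width is set in part by type 5. Epithelia, vessels and nerves rest on basement membranes built on a type 4 network, to which type 7 anchoring fibrils and the transmembrane type 17 collagen attach the keratinocytes. The growing follicle pushes down into the dermis and withdraws from it in regression, with its dermal sheath and basement membrane being rebuilt on the way, and type 17 collagen is known from mouse work to maintain follicle stem cells.

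The label of the tissue was checked against marker genes. Inner root sheath genes (4 of 7 listed were measured) summed to 16146 to 20753 in anagen, 12328 to 18673 in catagen and 3506 to 12115 in telogen. Hair shaft keratins (3 of 7) summed to 753 to 922, 664 to 1061 and 193 to 609 in the same order, and epidermal genes (7 of 8) to 13641 to 18923, 10553 to 15423 and 8940 to 10260. KRT5 and KRT14 made up most of the epidermal sum, so it does not describe the list as a whole. KRT1 was at 273 to 594 in catagen and 622 to 1398 in telogen, and 4 of the 7 genes had a positive log2 change between these stages. Fibroblast genes other than collagens (9 of 9) summed to 646 to 1291 in anagen, with 769 and 646 in May, and to 1067 to 1183 and 1001 to 1249 in catagen and telogen. Skeletal muscle genes (8 of 10) summed to 271 and 265 in May and to 7.04 to 14.5 in the other 10 libraries. Smooth muscle and dermal sheath genes (8 of 8) were at 380 to 998, 691 to 1222 and 539 to 807, endothelial genes (8 of 8) at 114 to 140, 135 to 181 and 117 to 232, and Schwann cell genes (7 of 7) at 63.1 to 73.9, 68.2 to 86.2 and 95.9 to 164. Adipocyte genes (5 of 6) were at 37.6 to 73.6, 34.5 to 43.0 and 45.2 to 67.3, dermal papilla genes (9 of 9, RSPO2 under 1 in every library) at 89.7 to 107, 104 to 124 and 124 to 148, cycling genes (4 of 4) at 137 to 176, 173 to 224 and 132 to 205, and cartilage genes (6 of 7, MATN1 and COMP under 1 in every library) at 9.49 to 12.2, 8.54 to 11.6 and 12.8 to 18. The other sums, too, are weighted to their highest members and can hide opposite changes. In telogen against catagen 1 cycling gene passed as higher and 2 as lower, and the endothelial list gave the same counts. No measured marker was at 0 in all libraries. Transcripts of the mitochondrial genome took 1.53% to 2.42% of the signal in anagen, 2.07% to 3.51% in catagen and 4.63% to 11.8% in telogen, lowest of telogen in the March male. The part of these differences in the collagen results was not tested, and in bulk RNA fewer cells of a type and less RNA per cell cannot be told apart.

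Collagen genes together took 0.121% to 0.336% of the signal in a library. Their summed value was 2875 and 3084 in May, 1876 and 1782 in September, 1924 and 1209 in November, 1213 and 1813 in December, 1183 and 1460 in February and 1284 and 2139 in March. The May libraries thus stood above the other 10, and the March male stood next. Fibrillar chains made up most of that spread, from 312 in the November male to 1679 in the May male, whereas basement membrane chains went from 352 in the February male to 864 in the May male and the other types from 318 to 560. COL1A1, COL1A2 and COL3A1 accounted for 18.3% of the collagen signal in the November male and for 51.8% in the March male.

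**Figure D1:**
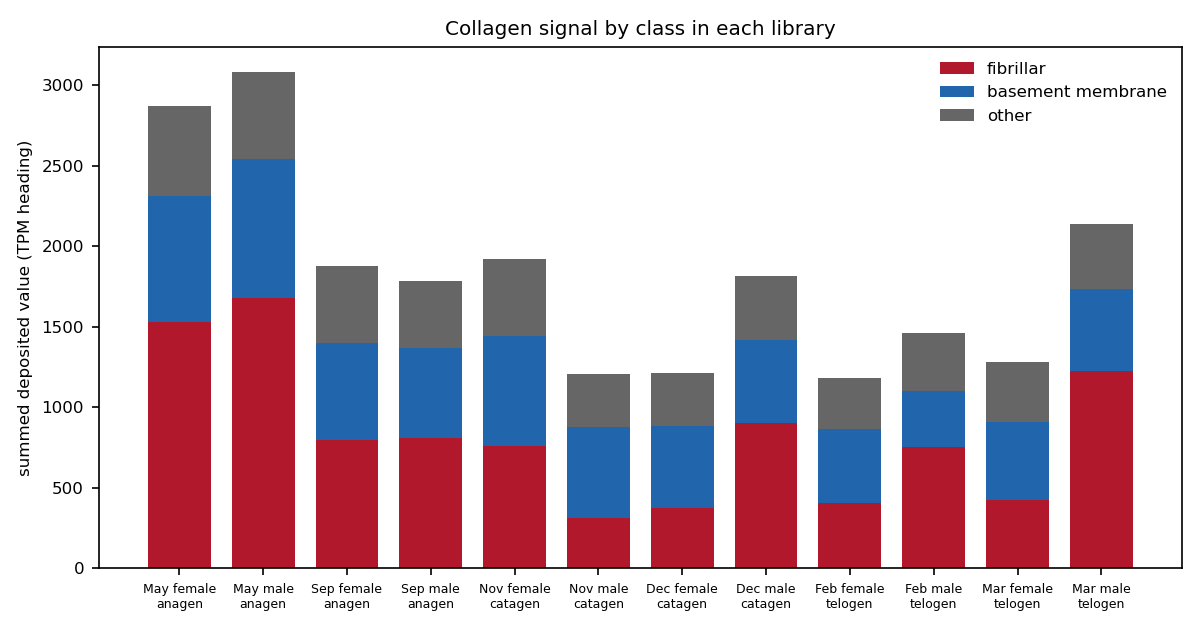
Summed deposited values (TPM heading) of the 43 collagen genes in each of the 12 libraries, stacked by class; each bar is 1 library. The 2 May bars are the tallest at 2875 and 3084, and the fibrillar part ranges from 312 to 1679.

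Of the 43 genes, 35 were tested because 2 or more libraries held a value of 1 or higher: 7 fibrillar, 7 basement membrane and 21 other chains. A gene passed at a Benjamini-Hochberg adjusted p below 0.05 over the 16095 genes tested, in limma on log2(value + 1), and fold changes are on that scale. In telogen against catagen 11 of 35 collagen genes passed (31.4%), against 43.6% of all genes tested. Of these, 4 rose (24.5% of all genes did) and 7 fell (19.0% of all genes did); 2 rose and 7 fell with quantile normalization. All 4 telogen libraries lay above all 4 catagen ones for 4 of the 35 (19.9% of all genes) and below them for 7 (15.9%). In anagen against telogen 15 of 35 passed (42.9%), against 52.9% of all genes, with 13 higher in anagen (23.7% of all genes) and 2 lower (29.2%). The anagen libraries lay entirely above the telogen ones for 11 (20.1% of all genes) and entirely below for 1 (23.2%). In catagen against anagen 0 of 35 passed, where 9 of all genes did (0.0559%), all lower; 10 of the 35 and 2519 of the 16095 had an unadjusted p below 0.05 in limma. The fitted change was negative for 32 of the 35, and COL12A1 and COL15A1 were the 2 whose catagen libraries all lay below the anagen ones (3.63% of all genes did, and 3.40% lay above, against 0 collagen genes). The share passing in either direction was below that of all genes in telogen against catagen and in anagen against telogen. The share higher in anagen than in telogen was above that of all genes. In catagen against anagen the 9 genes that passed are too few for shares to be compared. The median log2 change of the 35 was 0.05 in telogen against catagen, 0.30 in anagen against telogen and -0.30 in catagen against anagen, where it was 0.07, -0.08 and -0.02 over all genes tested. Without the November female library the first count was 7, and the share of all genes fell to 32.7%. The comparisons share libraries, so a high telogen value enters both of the first 2.

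By class, the basement membrane chains passed in 4 of 7 in telogen against catagen, all 4 lower (19.0% of all genes fell), and in 6 of 7 in anagen against telogen, all 6 higher in anagen (23.7% of all genes were). Fibrillar chains passed in 1 of 7 and 3 of 7, in the same directions, and the other types in 6 of 21 in either comparison, where 43.6% and 52.9% of all genes passed. Median log2 changes in anagen against telogen were 1.10 for basement membrane, 0.93 for fibrillar and 0.06 for other chains, against -0.08 over all genes. In telogen against catagen they were -0.53, -0.18 and 0.11, against 0.07. The classes differed in level: tested fibrillar and basement membrane chains had means of 9.44 (COL5A3) or higher. Many of the other chains had far lower means, down to 0.635 (COL22A1), where log2(value + 1) compresses a change. The class medians and counts are therefore not set at like levels. Among the higher other chains, anagen against telogen changes ran from -0.20 (COL12A1) to 1.50 (COL8A2).

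**Figure D2:**
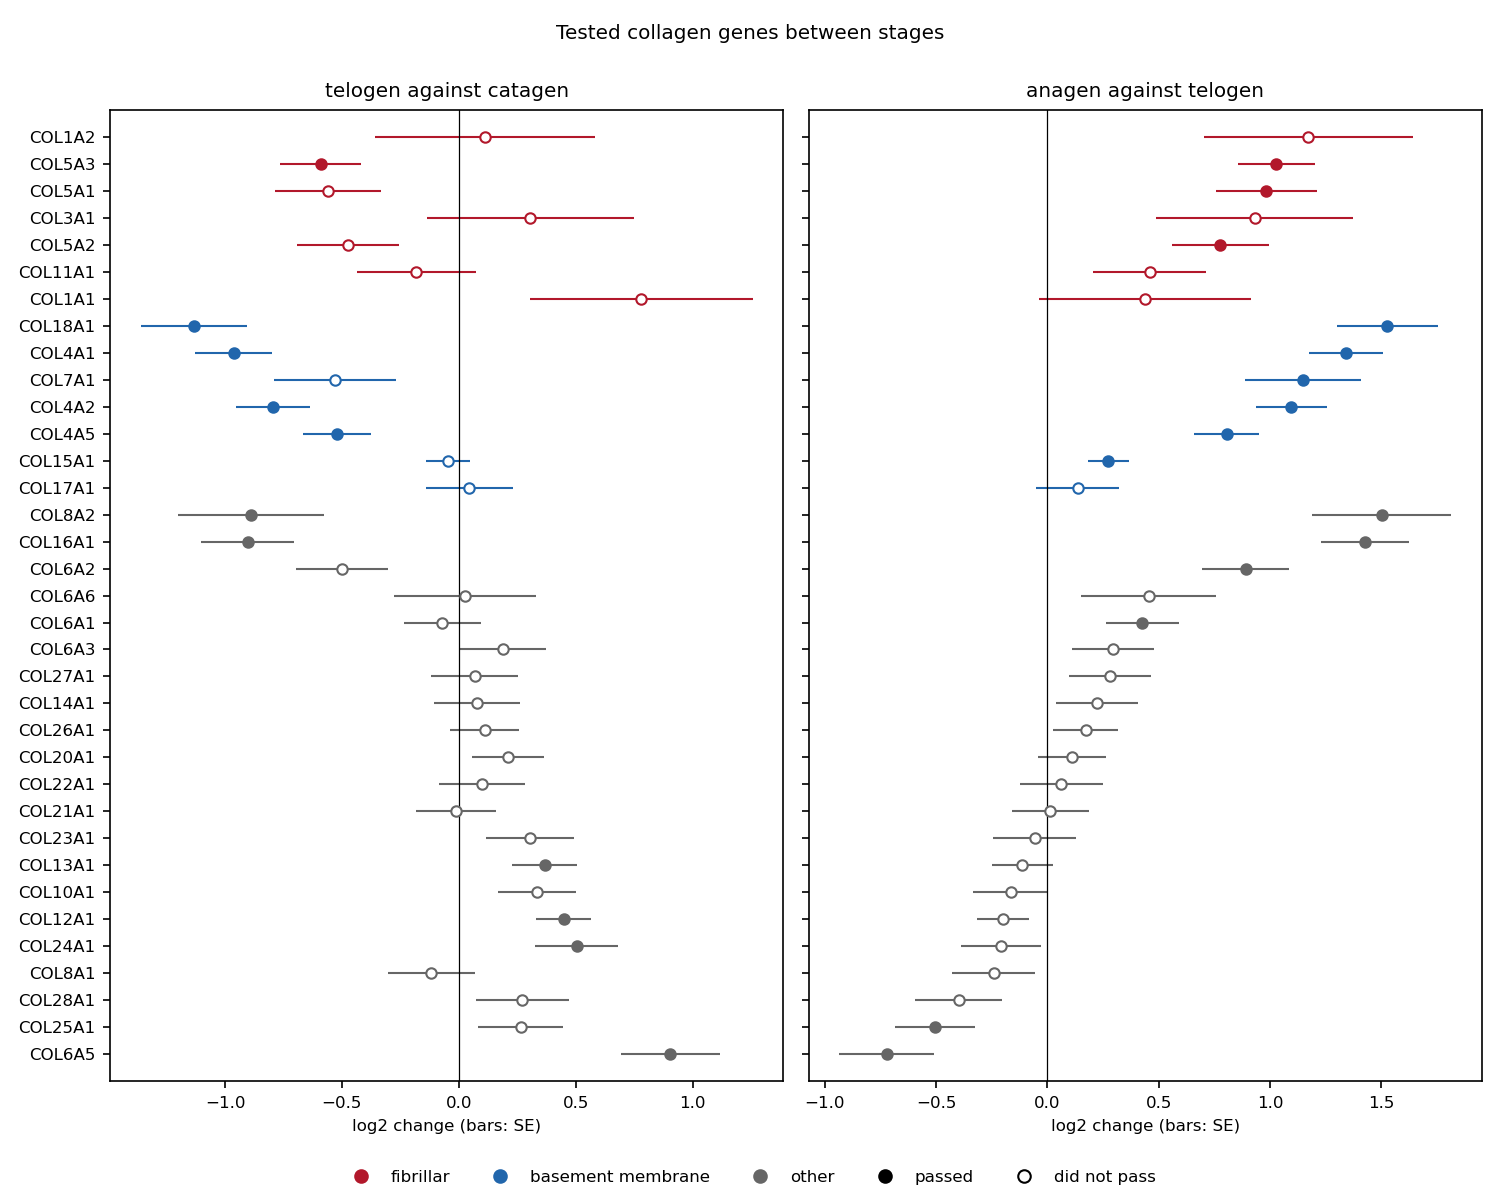
Log2 change of the 35 tested collagen genes in telogen against catagen (left) and anagen against telogen (right), with SE bars; colours give the class, filled points passed limma at an adjusted p below 0.05. In the right panel 6 of 7 basement membrane chains are filled and lie above 0, whereas COL6A5 and COL25A1 are the filled points below 0.

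COL1A1 (gene ID 100860828) and COL1A2 (gene ID 100860940) encode the chains of type 1 collagen, the main fibril of the dermis, and COL3A1 (gene ID 100860938) the chain of type 3, which shares its fibrils. COL1A1 was at 396 and 473 in May, 173 and 214 in September, 180 and 62.3 in November, 82.1 and 252 in December, 132 and 259 in February and 146 and 410 in March. COL1A2 was at 515 and 563, 259 and 237, 237 and 83.0, 99.8 and 254, 97.7 and 208, and 97.8 and 343 in the same order. COL3A1 was at 462 and 476, 225 and 238, 197 and 76.4, 93.6 and 265, 108 and 190, and 120 and 356. The November male was the lowest for each of these genes. The May libraries were the highest for COL1A2 and COL3A1, while for COL1A1 the March male, at 410, stood between them. The stages overlapped, and the 2 libraries of a month differed: in November the female was higher, and in December, February and March the male. With 1 library of each sex a month, sex cannot be told apart from other differences between 2 libraries.

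With that spread, none of the 3 genes passed between stages. In catagen against anagen the fitted changes were -1.28 for COL1A2 (adjusted p = 0.268), -1.24 for COL3A1 (0.263) and -1.22 for COL1A1 (0.271). COL1A1 had means of 314 ± 144 (SD, n = 4) in anagen, 144 ± 88.2 in catagen and 237 ± 128 in telogen, and its log2 change was 0.78 in telogen against catagen (SE 0.476, adjusted p = 0.2). COL1A2 was at 394 ± 169, 168 ± 89.5 and 186 ± 116, and its change of 1.17 in anagen against telogen (SE 0.471) had an adjusted p of 0.0511 in limma. It passed in 9 of the alternatives, with adjusted p = 0.0129 if the March male was left out, 0.0373 for the September male, 0.0499 for the September female, 0.0451 for the November male and 0.049 for the December male. COL3A1, with a change of 0.93 in the same comparison (SE 0.444, adjusted p = 0.0935), had an adjusted p of 0.0225 without the March male. COL1A1 stayed above the threshold in every alternative for that comparison. In May the summed non-collagen fibroblast markers were at their lowest, 769 and 646 against 1001 to 1291 elsewhere, and the skeletal muscle markers at their highest. VIM and DCN made up most of the fibroblast sum. With LUM, they were lower in May than in every other library, while PDGFRA, TWIST2, THY1, FBLN1, MFAP5 and DPT overlapped with the other months.

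Type 5 collagen is incorporated into type 1 fibrils and limits their width. COL5A1 (gene ID 108633220) was at 38.0 and 37.4 in May, 24.9 and 23.7 in September, 29.4 and 17.4 in November, 17.6 and 27.6 in December, 12.5 and 14.8 in February and 12.1 and 21.6 in March. All 4 anagen libraries lay above all 4 telogen ones, and it was higher in anagen by 0.98 (SE 0.227, adjusted p = 0.00316). COL5A2 (gene ID 102183732) was at 89.4 and 87.0, 86.1 and 71.9, 87.2 and 50.6, 62.0 and 75.8, 40.3 and 57.2, and 32.8 and 71.6, higher in anagen by 0.78 (SE 0.218, adjusted p = 0.00983). The lowest anagen library, at 71.9, stood only just above the March male at 71.6. The third chain, COL5A3, was at 12.7 and 18.3, 11.02 and 10.59, 11.6 and 10.6, 7.23 and 8.06, 5.38 and 5.26, and 6.71 and 5.89, lowest in the telogen libraries. It fell by 0.59 in telogen against catagen (SE 0.173, adjusted p = 0.0154) and was higher in anagen than in telogen by 1.03 (adjusted p = 0.000518). Without both May libraries, the anagen against telogen adjusted p was 0.0572 for COL5A1 and 0.0768 for COL5A2, while COL5A3 kept its call in all 23 alternatives. The COL5A3 fall from catagen was lost without the November female (0.0523), with each library rescaled to the same sum (0.0578) and with months averaged (0.0579).

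In telogen against catagen the fitted changes of COL5A1 (-0.56, adjusted p = 0.0603) and COL5A2 (-0.48, adjusted p = 0.0929) did not pass. Without the March male they passed, at -0.73 (adjusted p = 0.016) and -0.66 (0.0167), and without the November male at -0.67 (0.0426) and -0.61 (0.0471). Without the December female COL5A1 also passed (0.0441), as it did without both May libraries (0.0497). COL11A1, a chain of type 11 better known from cartilage, was at 14.5 to 22.6 in anagen, 10.9 to 19.1 in catagen and 7.19 to 18 in telogen, and passed in no stage comparison. The remaining fibrillar genes, COL2A1 of cartilage and COL11A2, stayed under 1 in every library and were not tested.

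**Figure D3:**
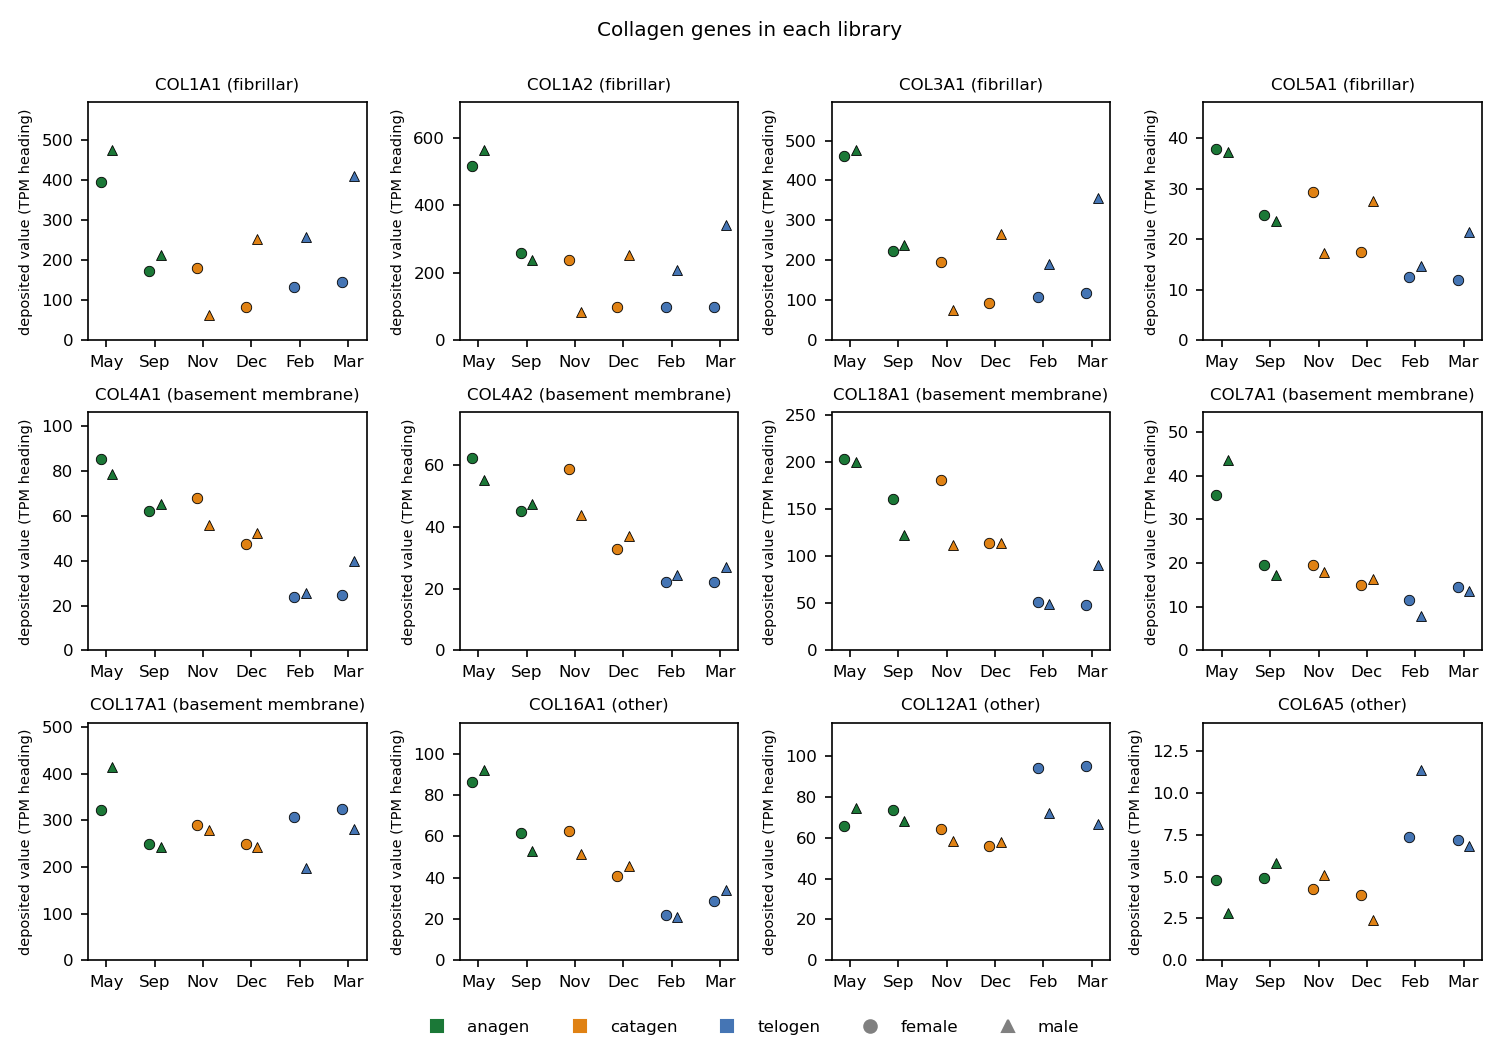
Deposited values (TPM heading, linear axis from 0) of 12 collagen genes by month; circles are female and triangles male libraries, colours give the stage. COL4A1, COL4A2, COL18A1 and COL16A1 are lower in every telogen than in every catagen library, and COL1A2 and COL3A1 are highest in the May libraries.

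In the type 4 network, COL4A1 (gene ID 102171079) and COL4A2 (gene ID 102171347), the chains found in nearly all basement membranes, are neighbours in RefSeq's gene order for assembly ARS1.2. COL4A1 was at 85.4 and 78.9 in May, 62.2 and 65.3 in September, 68.1 and 56.0 in November, 47.4 and 52.2 in December, 23.8 and 25.6 in February and 24.9 and 39.8 in March. COL4A2 was at 62.2 and 55.2, 45.3 and 47.4, 58.6 and 43.8, 32.9 and 37.1, 22.2 and 24.3, and 22.3 and 26.9 in the same order. Every telogen library lay below every other library for either gene. COL4A1 fell by 0.96 in telogen against catagen (SE 0.166, adjusted p = 0.00113) and COL4A2 by 0.79 (SE 0.159, adjusted p = 0.00224), and they were higher in anagen than in telogen by 1.34 (SE 0.166, adjusted p = 0.000154) and 1.10 (SE 0.159, adjusted p = 0.000252). Both kept both calls in all 23 alternatives.

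COL4A5 (gene ID 102176947), a chain of epithelial type 4 networks, was at 38.4 and 38.9, 34.5 and 25.9, 34.4 and 23.9, 25.3 and 28.4, 17.1 and 20.0, and 17.3 and 22.1 from May to March. It fell by 0.52 in telogen against catagen (SE 0.146, adjusted p = 0.0125, and 0.0501 with each library rescaled to the same sum) and was higher in anagen than in telogen by 0.80 (adjusted p = 0.000764). COL4A3 and COL4A4, the chains of the kidney network and also neighbours in the gene order, stayed under 1 and were not tested. COL4A3 was at 0.06 to 0.29 in anagen, 0.2 to 0.26 in catagen and 0.4 to 0.65 in telogen, and COL4A4 at 0.12 to 0.29, 0.11 to 0.22 and 0.45 to 0.77, so the telogen values were the highest for both. This was not particular to them: the untested COL2A1, COL9A1, COL9A2 and COL19A1 also had their highest stage mean in telogen. The untested COL9A3 and COL11A2 had theirs in anagen. COL4A6 is named in the RefSeq table but has no entry in the deposited data, so it could not be analysed.

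COL18A1 (gene ID 102174703), a basement membrane collagen that carries endostatin at its end, was at 203 and 200 in May, 161 and 122 in September, 181 and 112 in November, 114 and 115 in December, 51.2 and 49.5 in February and 48.1 and 90.8 in March. Telogen libraries did not overlap with the others. It fell by 1.13 in telogen against catagen (SE 0.228, adjusted p = 0.00236) and was higher in anagen than in telogen by 1.53 (SE 0.228, adjusted p = 0.000293), and either call held in all 23 alternatives. Its relative COL15A1, which is known from the basement membranes of vessels, muscle and nerve, varied little: 35.4 and 32.8, 33.3 and 35.3, 29.9 and 30.4, 26.8 and 29.1, 26.2 and 25.0, and 28.6 and 33.2. It was higher in anagen than in telogen by 0.27 (SE 0.0935, adjusted p = 0.0256), a call kept in 14 of 23 alternatives and lost, among others, with the libraries rescaled to the same sum (0.161), without both May libraries (0.0952) and without the May female (0.0642), September male (0.0527), February female (0.0728) or February male (0.0721).

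COL7A1 (gene ID 106503435) forms the anchoring fibrils that tie the epidermal basement membrane to the dermis. Its values were 35.5 and 43.6 in May, 19.5 and 17.3 in September, 19.5 and 18 in November, 15.1 and 16.4 in December, 11.5 and 7.80 in February and 14.6 and 13.7 in March. The May libraries stood well above the next highest value, 19.5, and all 4 telogen libraries lay below the catagen ones. It was higher in anagen than in telogen by 1.15 (SE 0.261, adjusted p = 0.00288), kept in all 23 alternatives, with a smaller change of 0.62 without both May libraries (adjusted p = 0.0348). In telogen against catagen the change of -0.53 did not pass (SE 0.261, adjusted p = 0.116), and it did without both May libraries (0.0262) or with only the 8 libraries compared (0.036).

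COL17A1 (gene ID 102187830), a transmembrane collagen of hemidesmosomes, had the highest mean of the 43 genes, 284 over the 12 libraries, above 97.9% of all genes. Unlike the type 4 chains it did not pass in any stage comparison. Its values were 323 and 414 in May, 248 and 244 in September, 291 and 280 in November, 249 and 243 in December, 307 and 199 in February and 324 and 282 in March. The stage means were 307 ± 79.9 (SD, n = 4) in anagen, 266 ± 23.6 in catagen and 278 ± 55.6 in telogen, and the log2 changes were 0.05 in telogen against catagen (SE 0.187, adjusted p = 0.861) and 0.13 in anagen against telogen (SE 0.187, adjusted p = 0.565). As a share of the collagen signal it ran from 11.2% in the May female to 25.9% in the February female.

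Type 6 collagen forms beaded filaments close to basement membranes. COL6A1 was at 123 and 97.9 in May, 99.2 and 81.9 in September, 99.6 and 62.9 in November, 71.5 and 80.5 in December, 60.5 and 79.8 in February and 68.1 and 90.2 in March. COL6A2, its neighbour in the gene order, was at 132 and 118, 118 and 92.4, 124 and 68.2, 72.2 and 93.4, 48.7 and 58.8, and 59.1 and 82.5. COL6A3 was at 71.6 and 72.1, 49.3 and 48.7, 52.1 and 33.6, 36.4 and 49.4, 37.0 and 52.3, and 52.5 and 53.0. COL6A2 was higher in all anagen than in all telogen libraries, by 0.89 (SE 0.196, adjusted p = 0.00244, kept in all 23 alternatives). COL6A1 was higher by 0.43 (SE 0.165, adjusted p = 0.0437), with overlapping libraries and a call kept in 9 of 23 alternatives. COL6A1 lost it without either May library, the September female, either December library, either February library or the March female (adjusted p up to 0.134), without both May libraries (0.27) and under each of the 3 other scalings. COL6A3 did not pass (0.30, adjusted p = 0.191). In telogen against catagen COL6A2, at -0.50 (adjusted p = 0.054), passed without the November male (0.0323), December female (0.0436) or March male (0.0157).

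COL6A5, one of the alternative chains that can take the place of COL6A3 and a gene expressed in skin, went the other way. Its values were 4.81 and 2.84, 4.91 and 5.78, 4.24 and 5.07, 3.91 and 2.43, 7.33 and 11.4, and 7.17 and 6.83 from May to March, with all 4 telogen libraries above the other 8. It rose by 0.91 in telogen against catagen (SE 0.213, adjusted p = 0.00521, kept in all 23 alternatives) and was lower in anagen than in telogen by 0.72, with a fitted change of -0.72 (adjusted p = 0.0126, and 0.107 without both May libraries). COL6A6, next to it in the gene order, was at 1.23 to 5.15 and passed in neither comparison.

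Among the fibril-associated collagens, which sit on the surface of fibrils, COL16A1 (gene ID 102172853), found near the junction of epidermis and dermis, was at 86.3 and 92.3, 61.8 and 53.1, 62.5 and 51.5, 40.7 and 45.5, 21.9 and 21.2, and 28.7 and 34.1. Telogen libraries were the lowest. It fell by 0.90 in telogen against catagen (SE 0.199, adjusted p = 0.00371) and was higher in anagen than in telogen by 1.43 (SE 0.199, adjusted p = 0.000213), and both calls held in all 23 alternatives. COL12A1, at 65.9 and 74.6, 73.4 and 67.9, 64.2 and 58.2, 55.9 and 58.1, 93.9 and 71.9, and 94.9 and 66.8, was lowest in catagen. Its rise of 0.45 in telogen against catagen (SE 0.117, adjusted p = 0.00886) held in all 23 alternatives, and the telogen females stood above the telogen males. COL14A1 was at 27.1 and 37.8, 25.0 and 22.8, 26.9 and 18.2, 19.4 and 25.8, 17.5 and 22.8, and 28.2 and 27.2, overlapped between stages and did not pass.

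COL8A2, a short-chain collagen that forms sheets, was at 16.8 and 10.8, 15.2 and 11.9, 17.3 and 6.87, 5.38 and 7.84, 3.10 and 4.72, and 2.57 and 7.22. It was higher in anagen than in telogen by 1.50 (SE 0.312, adjusted p = 0.00171, kept in all 23 alternatives). Its fall of 0.89 in telogen against catagen (SE 0.312, adjusted p = 0.0345) was kept in 17 of 23 alternatives and lost without the November female (0.101), December male (0.0541), February female (0.0906), February male (0.0513) or March female (0.0983). Its partner COL8A1 was at 1.75 to 5.53 and did not pass.

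Low-level chains also passed. COL13A1, a transmembrane collagen of cell adhesions, was at 2.23 and 1.84, 1.51 and 1.39, 1.29 and 1.51, 0.87 and 1.53, 1.87 and 1.77, and 2.29 and 1.88, and rose by 0.37 in telogen against catagen (adjusted p = 0.0457), a call kept in 8 of 22 alternatives. COL24A1, related to the fibrillar chains, was at 1.57 and 2.68, 1.43 and 0.85, 0.80 and 1.01, 1.31 and 1.25, 1.80 and 2.09, and 1.86 and 2.07, and rose by 0.50 (adjusted p = 0.0357, kept in 14 of 22). COL25A1, another transmembrane chain, was at 0.93 and 0.67, 0.39 and 1.37, 1.65 and 1.06, 0.98 and 0.91, 1.86 and 2.00, and 1.25 and 1.23, and was lower in anagen than in telogen, with a fitted change of -0.50 (adjusted p = 0.0316, kept in 14 of 22). The COL13A1 call ended when any 1 of 8 libraries was left out (May male, September female, November female, December female, or any telogen library), with adjusted p up to 0.135. The COL24A1 call ended without either November library or any telogen one (up to 0.101). The COL25A1 call ended without the May male, the September female or either library of February (up to 0.102). With quantile normalization all 3 were lost (0.534, 0.237 and 0.185). The untested chains of this class, COL9A1, COL9A2, COL9A3 and COL19A1, reached 1.02 at most. The tested chains COL10A1, COL20A1, COL21A1, COL22A1, COL23A1, COL26A1, COL27A1 and COL28A1 had means of 0.635 to 4.72 and passed in no stage comparison.

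Because the values are per length, the chains of a collagen can be set against each other within a library. Type 1 trimers hold more COL1A1 than COL1A2 chains, but the values are of RNA, so their ratios do not measure the chains in the protein. The ratio of COL1A1 to COL1A2 was 0.768 and 0.841 in May, 0.669 and 0.902 in September, 0.757 and 0.751 in November, 0.822 and 0.991 in December, 1.35 and 1.25 in February and 1.49 and 1.19 in March. All 4 telogen libraries stood above the other 8, also in the March male, whose type 1 levels exceeded those of the other telogen libraries. The log2 difference was 0.68 in telogen against catagen (exact permutation test, two-sided, p = 0.0286, the smallest that 4 against 4 allows). After adjustment over the 21 tests of 7 pairs in 3 stage comparisons p was 0.0857, so no ratio passed. From that smallest p a ratio could pass only if most of the 21 tests reached it, so not passing says little about the separation. The pairs were chosen after the values had been seen.

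The ratio of COL3A1 to COL1A1 was 1.01 to 1.29 in anagen, 1.06 to 1.23 in catagen and 0.734 to 0.87 in telogen, without overlap of telogen with the rest (exact permutation p = 0.0286, adjusted p = 0.0857). That of COL6A1 to COL6A2 was 0.83 to 0.935, 0.803 to 0.99 and 1.09 to 1.36, with the same exact permutation p-values. COL8A2 to COL8A1 ran from 3.05 to 6.18 in anagen to 0.684 to 2.51 in telogen (exact permutation p = 0.0286, adjusted p = 0.0857), with catagen between them at 1.24 to 4.23. The ratios of COL4A1 to COL4A2 (1.37 to 1.43, 1.16 to 1.44 and 1.05 to 1.48) and of COL5A1 to COL5A2 (0.289 to 0.429, 0.283 to 0.364 and 0.258 to 0.368) overlapped between stages. COL6A3 to COL6A1 lay at 0.497 to 0.772 throughout.

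**Figure D4:**
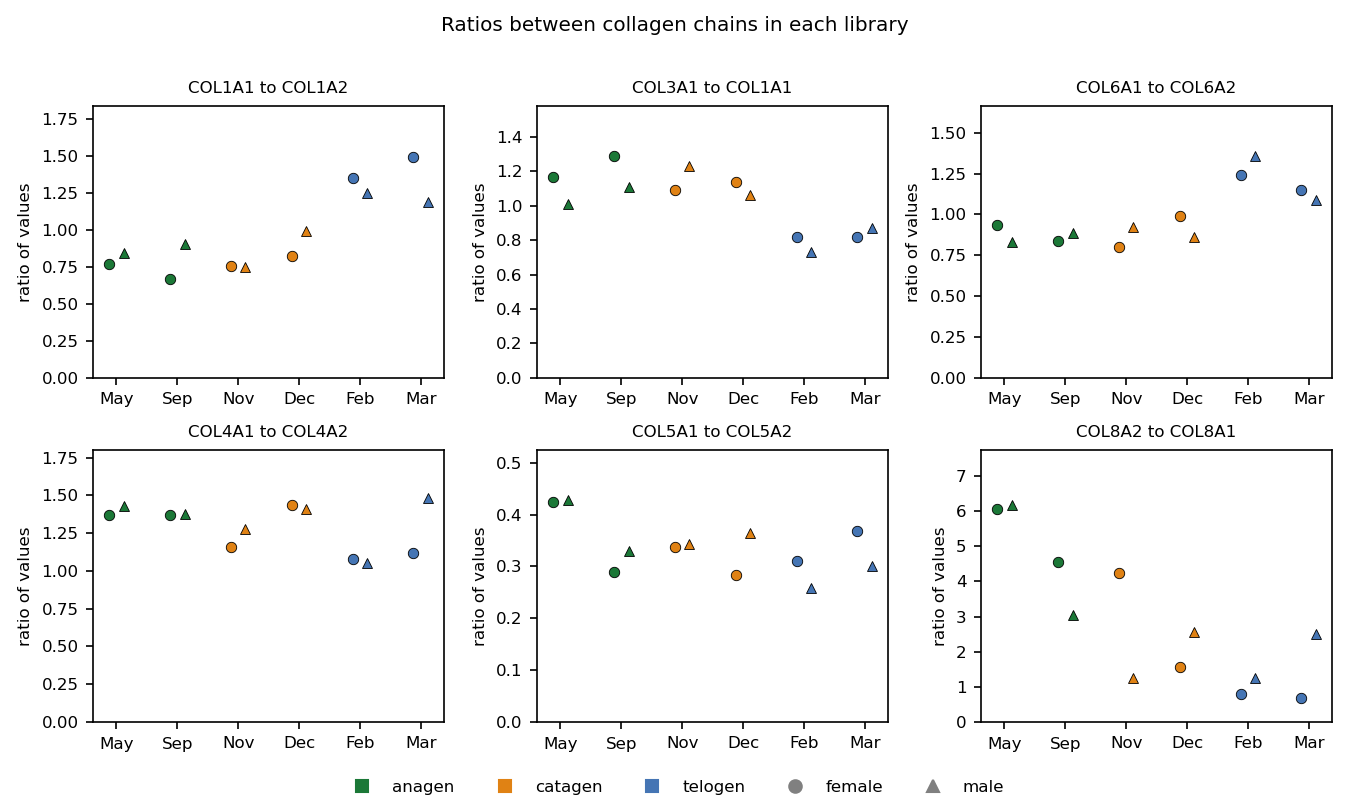
Ratio of the deposited values of 2 collagen chains in each library by month (linear axis from 0); circles are female and triangles male libraries, colours give the stage. COL1A1 to COL1A2 lies at 1.19 to 1.49 in telogen and at 0.669 to 0.991 in the other 8 libraries, while COL4A1 to COL4A2 overlaps between the stages.

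Among the 6 months, each with 2 libraries, 10 of 35 collagen genes passed the F test (28.6%) against 32.7% of all genes. COL16A1 had the smallest adjusted p (F = 47.9, adjusted p = 0.000999), followed by COL7A1 (0.00323), COL4A2 (0.00389), COL4A1 (0.00403), COL5A3 (0.00528), COL18A1 (0.00789), COL4A5 (0.022), COL6A5 (0.024), COL5A1 (0.0428) and COL8A2 (0.0496). The first 6 kept the call in all 19 alternatives, and COL8A2 kept it in 7. The count was 6 when the February male was left out and 16 when the March male was, where 14.9% and 45.7% of all genes passed.

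In May against March 9 of 35 passed (25.7%) against 27.4% of all genes, all 9 higher in May (13.9% of all genes were). They were COL18A1 (1.59), COL16A1 (1.48), COL8A2 (1.42), COL7A1 (1.42), COL4A1 (1.35), COL4A2 (1.22), COL5A1 (1.17), COL5A3 (1.16) and COL4A5 (0.95), with adjusted p-values of 0.0011 (COL16A1) to 0.0431 (COL8A2). Both May libraries lay above both March ones for 15 of the 35 (29.8% of all genes) and below for 4 (36.8%). The count was 5 with either May library left out, where 1.40% (female out) and 2.38% (male out) of all genes passed. It was 14 with the March male out (37.9% of all genes) and 0 with only the 4 libraries compared (0.250%). COL8A2 kept this call in 8 of 20 alternatives; without the March female its change was 0.82 (adjusted p = 0.253) and that of COL5A1 was 0.78 (0.123). In February against December 6 of 35 passed (17.1%) against 16.6% of all genes: COL18A1 (-1.17), COL4A1 (-0.98), COL16A1 (-0.96), COL7A1 (-0.67) and COL4A2 (-0.57) fell and COL6A5 rose by 1.31 (adjusted p = 0.0203). Of all genes 7.69% fell and 8.90% rose. Both February libraries lay above both December ones for 10 of the 35 (37.9% of all genes) and below for 12 (28.4%). That count was 0 without the December female (0.261% of all genes passed), the December male (0.118%) or the February male (0.139%) and 3 without the February female (6.07%). Without the February male the COL7A1 change was -0.42 (adjusted p = 0.156).

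Within anagen, 0 of 35 passed in September against May, where 22 of all genes did (0.137%; 0.0311% higher and 0.106% lower) and 7 of the 35 and 1572 of the 16095 had an unadjusted p below 0.05 in limma. COL7A1 came nearest, at -1.06 (SE 0.175, adjusted p = 0.0708), and passed without the February female (0.0348) or the February male (0.0355) and, with COL1A1, COL1A2 and COL3A1, when only the 4 libraries of these months were fitted (adjusted p = 0.0332 to 0.0474). The fitted changes of COL1A1, COL1A2 and COL3A1 were -1.17, -1.12 and -1.02. All 7 tested fibrillar chains had both September values below both May values; so did 21 of the 35 collagen genes, against 26.5% of all genes, and 3 were arranged the other way, against 25.5%.

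Male and female libraries, compared with month as a block, differed in 0 of 35 collagen genes, against 9 of all genes (0.0559%; 0.0435% higher and 0.0124% lower in males); 2 of the 35, COL21A1 (0.35) and COL6A6 (0.61), had an unadjusted p below 0.05 in limma (adjusted p = 0.605 for each), as did 1185 of the 16095. COL1A1 was at 0.52 (SE 0.361, adjusted p = 0.732), with the male higher in 5 of 6 months. The stage changes of the sexes were compared through an interaction term, and 0 of 35 passed in each of the 3 stage comparisons, with 4 at an unadjusted p below 0.05 in telogen against catagen, 7 in anagen against telogen and 0 in catagen against anagen (smallest adjusted p = 0.27 in limma). Of all 16095 genes 3, 1 and 0 passed in these comparisons.

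Other genes of collagen biology were taken from lists of known roles. Of 22 enzymes and chaperones that modify and export procollagen, 7 rose and 4 fell in telogen against catagen. PPIB (-0.76), a prolyl isomerase, P4HB (-0.56), a subunit of prolyl 4-hydroxylase, P3H3 (-0.95) and P3H4 (-1.06) fell. The export factors MIA3 (0.45) and SEC23A (0.73), the hydroxylase P3H2 (0.50) and CRTAP (0.21) rose. In anagen against telogen 6 were higher and 7 lower, and SERPINH1, the collagen chaperone, passed in neither comparison. Of 17 genes that process or cross-link collagen, 3 rose and 2 fell in telogen against catagen, with CTHRC1 at 1.05 and PXDN, which cross-links type 4 collagen, at -0.63. In anagen against telogen 2 of these were higher and 3 lower.

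Of 19 tested proteoglycans and glycoproteins that bind fibrils, 5 rose and 2 fell in telogen against catagen. The small proteoglycans OGN (1.02), FMOD (0.91) and BGN (0.73) and the matrix protein POSTN (0.74) rose, and FBLN2 (-1.17) and FBLN1 (-0.54) fell; in anagen against telogen 3 were higher and 7 lower. Of 10 tested collagen receptors and uptake genes 3 rose and 3 fell: CD44 (0.81), DDR2 (0.63) and CD36 (0.58) against ITGB1 (-0.63), DDR1 (-0.59) and MRC2 (-0.76). DDR1 is the discoidin receptor of epithelia and DDR2 that of mesenchyme. In anagen against telogen 4 were higher and 3 lower. Of 25 basement membrane partners 6 rose and 7 fell in telogen against catagen. CD151 (-0.94), PLEC (-0.99) and the laminin chains LAMB3 (-0.75) and LAMA5 (-0.45) fell, whereas LAMA3 (0.46), NPNT (0.66), FRAS1 (0.71) and FREM2 (0.86) rose. In anagen against telogen 7 of these partners were higher and 8 lower. In catagen against anagen 0 members of these lists passed. The shares of all genes were 24.5% rising and 19.0% falling in telogen against catagen, and 23.7% higher and 29.2% lower in anagen against telogen.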

How the data were processed

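RNA from secondary hair follicles was sequenced on an Illumina HiSeq, per the series' design text. The values are signal deposited by the authors as 1 table per library under a heading of TPM; library sums differ, so they had been rescaled by a step not given in the sources used here. The submitters' processing notes name kallisto 0.46.1 and sleuth 0.30.0; the genome build and annotation are not given in the sources used here. Read depth is unknown.

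All 43 members matched the RefSeq table (ARS1.2) by gene number and symbol; no sequences were used. Members and gene lists were chosen with earlier results of these data known. Values of every library are printed for 15 chains fixed by name, the 5 highest means per class and up to 6 largest rises and falls per stage comparison. Up to 4 passing members are named per partner list and direction.

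Genes at 1 or higher in 2 or more libraries were fitted as log2(value + 1) in limma 3.58.1 (R 4.3.3, moderated variances with trend) on all 12 libraries, by stage, by month or by sex with month as a block, with Benjamini-Hochberg adjustment over 16095 genes. The p-values reflect only the spread among these libraries. The 2 libraries of a month are labelled as biological replicates, a female and a male, so their spread mixes animal, sex and technical differences. Whether animals were sampled repeatedly is not given. No 2 libraries shared more than 1.55% of values. The scripts were tested on simulated data. Alternatives were another added constant, 2 other filters, 3 other scalings, the replicate block, averaged months, only the libraries compared, no May libraries and each library left out. The March male with both May libraries left out, and the chain ratios, were added after seeing the data.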

Additional observations from a re-analysis of the deposited data

Results flagged for a closer look

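Of 102 groups of 4 libraries searched (34 measures in 3 stages), 8 held a library whose gap to the nearest other exceeded Dixon's limit; chance flags about 1 in 20. Telogen held 6 of the 8, and 4 of these were the March male, the telogen library with the lowest mitochondrial share (4.63%). Its inner root sheath sum (12115) and hair shaft sum (609) were the highest of telogen, and its Schwann cell sum (95.9) was the lowest. Whether these go with its collagen values was not tested. In the March male COL18A1 was at 90.8 against 48.1 to 51.2 in the other telogen libraries, and COL4A1 at 39.8 against 23.8 to 25.6. The collagen share of its signal was 0.236% against 0.121% to 0.139%, and its ratio of COL4A1 to COL4A2 was 1.48 against 1.05 to 1.12. COL6A3 was at 37.0 in the February female against 52.3 to 53.0, and COL6A5 at 11.4 in the February male against 6.83 to 7.33. In catagen, COL18A1 stood at 181 in the November female against 112 to 115. In anagen, the COL4A1 to COL4A2 ratio was 1.43 in the May male against 1.37 to 1.38.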

How the results depend on the processing

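The counts of collagen genes that passed were 9 to 16 under the other alternatives in telogen against catagen (11 as reported), 10 to 18 in anagen against telogen (15) and 0 in catagen against anagen and between the sexes. With each library left out they ranged from 7 to 13, 12 to 19, 0 and 0. The F test over months (10) gave 6 to 16 with a library left out, September against May (0) gave 0 to 1, February against December (6) gave 0 to 7 and May against March (9) gave 5 to 14. With only the libraries compared, September against May gave 4 and May against March gave 0, a fit on 4 libraries only. Every stage and month call with a direction kept its sign in the alternatives run.

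The replicate number marks sex. Deviations of same-numbered libraries from their month means correlated at -0.255 to 0.442 over 15 pairs of months (median 0.114), above 0.1 in 9 of them. Because number and sex coincide, these correlations cannot tell repeated sampling of animals from a difference between the sexes. With the replicate block the counts were 10, 15 and 0 in the 3 stage comparisons in the order above, 8 over the months, 0, 5 and 8 in the month comparisons; 14 of the 15 in anagen against telogen were among those reported, COL6A1 being lost (adjusted p = 0.0518) and COL1A2 gained (0.0499). The block also ended the calls of COL13A1 in telogen against catagen (0.0532), COL5A1 (0.0564) and COL8A2 (0.0732) over the months, COL4A2 in February against December (0.051) and COL8A2 in May against March (0.0566). Rescaling each library to the same sum moved the median log2 change of all genes by -0.16 in September against May. The telogen against catagen split was 2 higher and 7 lower with quantile normalization and 4 higher and 5 lower after rescaling to the same sum.

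Read depth is unknown, so no limit of detection can be given for the chains under 1.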
